A study of Mus musculus with 4 samples.

Results

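Heme set against its vehicle in wild-type mouse marrow cultures was followed here through the functions of the genes that differed, beyond the few largest differences. The comparison is of 1 array of cells given heme with 1 array of cells given vehicle, and it covers 10772 of the 19938 genes measured. A gene was included when the brighter of these arrays reached the median of all values in the series, a signal of 30.96 (called "at level" below).

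Both arrays came from marrow of B6 mice that carry both copies of Bach1 (Bach1 +/+). The marrow was cultured in IMDM with 10% fetal calf serum and GM-CSF at 20 ng/ml, a cytokine that drives marrow precursors to become macrophages and dendritic-like cells. On day 6 the cells received heme at 40 µM, or the vehicle, 0.15 M NaCl with 10% NH4OH. Floating cells were removed and RNA was taken from the adherent cells 24 h later. A second pair of arrays held marrow labelled Bach1 -/- with the same additions, and it shares no array with the wild-type pair. The Bach1 probe set did not separate the genotypes, so those arrays are called labelled knockout. Each of the 4 groups is 1 array, so no value below has an error or a p-value, and differences between cultures cannot be told apart from the effect of heme. In bulk RNA such as this, fewer cells of a type and less RNA per cell also cannot be told apart.

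Heme is the iron-containing ring of hemoglobin, and macrophages meet it in bulk when they digest red blood cells. Inside the cell, heme oxygenase opens the ring and releases iron, carbon monoxide and biliverdin, and the iron is stored in ferritin or exported by ferroportin. Free heme is an oxidant: BACH1 represses a set of protective genes until heme binds it, and NRF2 (gene Nfe2l2) activates many of the same genes at a shared DNA element, the antioxidant response element. Extracellular heme is also known to act on innate immune receptors of macrophages, upstream of the transcription factor NF-κB.

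The promoters of genes on these different routes are shown first, as examples of the functions described below. The sequences are from RefSeq (build GRCm38.p6) and cover part of a window from 250 bases before to 50 bases after the annotated start of each gene, 5′ to 3′ on the gene's own strand. Capitals mark a match to a motif on either strand. The first 4 genes had a match to the core of the antioxidant response element, TGACNNNGC, and were higher with heme. Me1, at chr9:86695865-86695980 on the minus strand, had a match that begins 6 bases before the start and runs across it. Gclm is shown at chr3:122245363-122245491 on the plus strand, with the match on the opposite strand. Procr is at chr2:155751003-155751131 and Sod1 at chr16:90220646-90220774, both on the plus strand, and the match of Sod1, like that of Gclm, reads on the opposite strand.
Me1: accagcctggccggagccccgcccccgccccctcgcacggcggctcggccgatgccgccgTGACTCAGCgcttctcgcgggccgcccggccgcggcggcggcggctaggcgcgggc
Gclm: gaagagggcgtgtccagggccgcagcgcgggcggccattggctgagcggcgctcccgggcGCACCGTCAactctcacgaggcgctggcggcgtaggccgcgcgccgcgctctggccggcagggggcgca
Procr: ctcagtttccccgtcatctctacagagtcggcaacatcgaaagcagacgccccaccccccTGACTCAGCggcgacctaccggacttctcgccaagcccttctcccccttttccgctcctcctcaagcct
Sod1: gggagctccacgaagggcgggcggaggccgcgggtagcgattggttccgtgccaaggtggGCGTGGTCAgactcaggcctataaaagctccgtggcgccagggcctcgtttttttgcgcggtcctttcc
The next 3 genes encode secreted inflammatory proteins, were higher with heme, and had a match to the NF-κB (κB) consensus. They are Il6 at chr5:30013010-30013139, Cxcl3 at chr5:90785968-90786098 and Cxcl2 at chr5:90903742-90903872, all on the plus strand. The matches of Cxcl3 and Cxcl2 have the same letters.
Il6: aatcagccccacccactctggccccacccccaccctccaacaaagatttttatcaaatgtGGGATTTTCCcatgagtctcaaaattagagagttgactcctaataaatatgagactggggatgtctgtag
Cxcl3: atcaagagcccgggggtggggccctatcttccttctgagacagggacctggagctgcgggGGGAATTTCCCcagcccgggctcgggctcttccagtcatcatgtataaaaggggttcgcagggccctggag
Cxcl2: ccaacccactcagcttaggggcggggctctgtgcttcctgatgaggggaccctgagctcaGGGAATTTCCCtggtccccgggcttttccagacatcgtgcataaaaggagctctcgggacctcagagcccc
The last, Hmgcs1 at chr13:119690154-119690282 on the plus strand, encodes an enzyme of cholesterol synthesis, was lower with heme, and had a match to the sterol regulatory element, TCACNCCAC.
Hmgcs1: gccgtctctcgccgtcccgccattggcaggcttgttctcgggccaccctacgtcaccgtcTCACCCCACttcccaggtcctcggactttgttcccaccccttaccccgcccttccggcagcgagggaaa

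A gene can have several starts and so several windows. Such matches are short and common, and a match is a description of the letters, not a site of binding. The antioxidant response core was found in 13.2% of the windows of all measured genes and in 13.6% of those of the genes at least 2-fold higher with heme (15 of 110 windows). It stood in 26.8% of the windows of the list of NRF2 target enzymes (11 of 41). The κB consensus was in 4.95% of all windows, in 11.8% of the windows of the higher genes (13 of 110) and in 4.17% of those of the lower genes (4 of 96). In the list of NF-κB targets and feedback inhibitors it stood in 44.8% (13 of 29). The AP-1 motif TGANTCA, which overlaps the antioxidant core where that reads as in Me1, was in 6.88% of all windows, 8.18% of the higher and 13.5% of the lower. The sterol element was in 1.18% of all windows and in 3.70% of the cholesterol synthesis list, which is Hmgcs1 alone (1 of 27). Motif and list did not always pair: the sterol element was in 6.45% of the windows of the glutathione transferase and efflux list (2 of 31), and the κB consensus in 14.8% of those of the cholesterol list (4 of 27).

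Most genes read nearly the same on both wild-type arrays. Of the 10772 genes at level, 9726 (90.3%) were within 1.5-fold, and the median log2 difference (heme minus vehicle) was -0.01 with a robust SD of 0.28. At 2-fold or more, 126 genes were higher with heme, 1.17% of those at level, and 96 were lower, 0.891%. At 1.5-fold the shares were 4.99% higher (537 genes) and 4.73% lower (509 genes). The higher genes were mostly dim in vehicle, with a median signal of 58.2 there and 162 with heme, and 37 of the 126 were below level in vehicle. The lower genes ran the other way, with medians of 132 and 49.0. Median signals over all probe sets were 30.4 and 30.9 on the wild-type arrays and 31.4 and 31.1 on the labelled knockout arrays. Of 47 functional gene lists, which share some genes, 54 of the higher and 32 of the lower genes were members of at least 1.

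**Figure D1:**
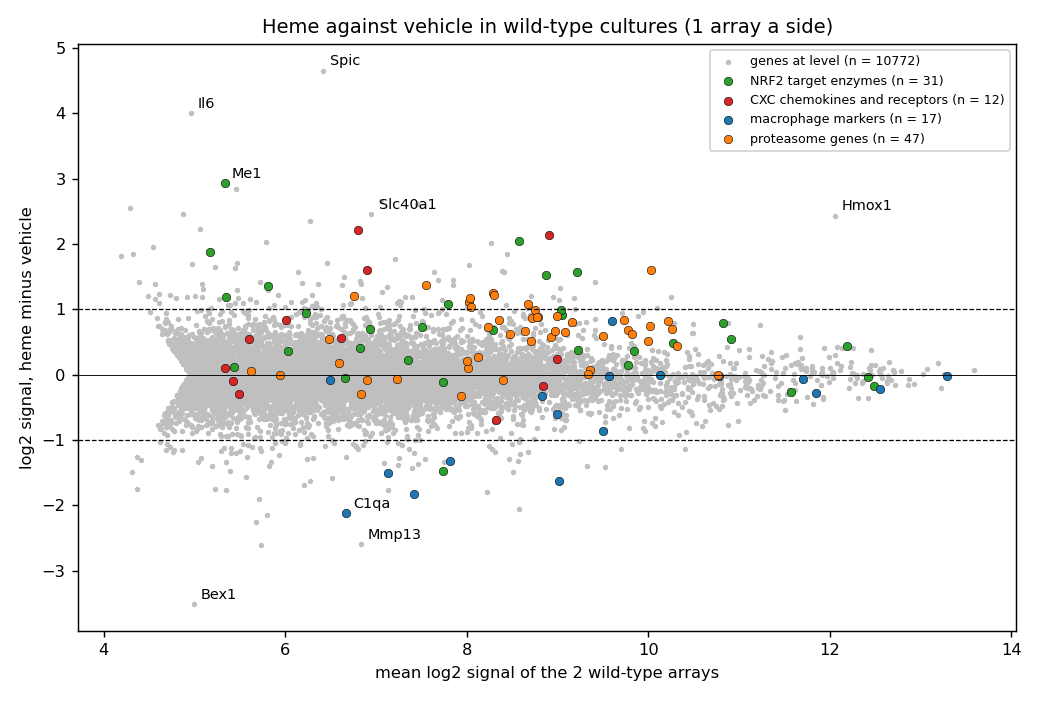
Log2 difference of each gene at level (heme minus vehicle, wild type; vertical axis) against its mean log2 signal on those arrays (horizontal axis); each point is a gene, members of 4 lists are coloured, and the dashed lines mark 2-fold. Most genes lie near 0, with 126 at or above the upper line and 96 at or below the lower one.

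With heme, the heme oxygenase Hmox1, the heme transporter Slc48a1 and the iron exporter Slc40a1 were higher and the transferrin receptor Tfrc was lower, while most other genes of heme and iron handling differed by less than 2-fold. Of 24 measured genes of heme breakdown and transport 20 were at level. Of these 4 were at least 2-fold higher and none was as much lower, with a median log2 difference of 0.00. Beside the heme oxygenase Hmox1, which read 1827 in vehicle and 9881 with heme, the heme transporter of the phagolysosome, Slc48a1, read 418 and 1113. Hmox2, the constitutive heme oxygenase, read 234 and 190. Biliverdin reductase B (Blvrb) read 508 in vehicle and 917 with heme. The other biliverdin reductase, Blvra, read 426 and 319. Of these oxygenases and reductases only Hmox1 passed 2-fold, and the lower readings of Hmox2 and Blvra were within 1.5-fold. Haptoglobin (Hp), the plasma protein that captures hemoglobin, read 143 and 370, a log2 difference of 1.37. Other transporters in the list lay on both sides of 0. Abcc1 and Abcc4 differed by 1.69 and 0.25 (log2), while several transporters of heme and porphyrins had negative differences. The heme exporter Flvcr1 read 147 and 107, its relative Flvcr2 read 46.7 and 28.1, and the porphyrin exporter Abcg2 read 31.3 and 20.8. None of these was 2-fold lower, and Flvcr2 and Abcg2 were below level with heme.

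Among 17 iron genes at level 2 were 2-fold higher and 1 lower, with a median of 0.12. The iron exporter ferroportin, Slc40a1, read 52.7 and 290. Lipocalin 2 (Lcn2), which binds the iron carriers of bacteria, read 198 and 587. The transferrin receptor Tfrc, the main route of iron uptake, read 72.8 in vehicle and 33.6 with heme, 2.16-fold lower. The mitochondrial iron carrier Slc25a37 read 72.7 and 135. Ferritin, in contrast, differed little. The heavy chain Fth1 read 8809 and 9963 and the light chain Ftl1 read 8328 and 8839. Both were among the brightest genes of the array in vehicle, and whether differences are compressed at such signals was not tested. Ferritin and the transferrin receptor are known to be controlled by iron through their mRNAs, at the level of translation for ferritin, which an array does not measure.

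**Figure D2:**
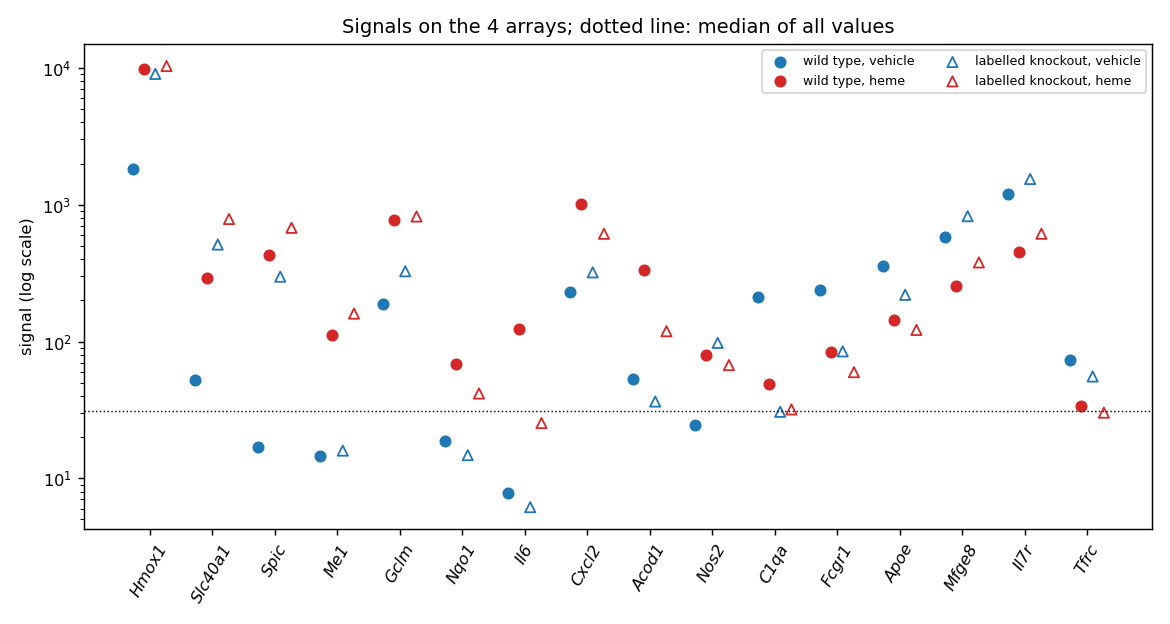
Signal (log axis) of selected genes (horizontal axis) on the 4 arrays; each point is 1 array, so there are no error bars. The dotted line is the median of all values; Hmox1 and Slc40a1 read higher with heme in wild type, and Tfrc read lower.

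The protective enzymes that NRF2 activates were, of the 47 lists, the one with the most members 2-fold higher by count. As a share of members at level, the red pulp macrophage (4 of 9) and neutrophil (5 of 17) marker lists held more. Both orders rest in part on genes below level in vehicle, which only the heme array brought in. These were Me1, Nqo1 and Akr1b8 among the NRF2 targets, Spic and Treml4 among the red pulp markers, and Prtn3 among the neutrophil markers. The lists were also chosen with earlier results known, so the orders are a description. Of 31 NRF2 targets at level, 8 were 2-fold higher and 1 was lower. At least 1.5-fold higher were 15, and the median was 0.54 against -0.01 for all genes. The genes of glutathione supply were among them. Slc7a11, the cystine importer, read 277 and 799. Gclm, the regulatory subunit of the ligase that begins glutathione synthesis, read 188 and 777, and Gclc, the catalytic subunit, read 54.1 and 105. The regulatory subunit thus differed by 2.05 on the log2 scale and the catalytic one by 0.95. NADPH supply was higher at Me1, a malic enzyme that makes NADPH in the cytosol, which read 14.6 and 111, below level in vehicle. Procr, the receptor of activated protein C, read 35.1 and 89.8. The quinone reductase Nqo1 read 18.7 and 69.0, and its relative Nqo2 read 103 and 99.4. Among the enzymes that remove superoxide and peroxides, the cytosolic superoxide dismutase Sod1 read 1374 and 2390, and the mitochondrial Sod2, a known NF-κB target, read 153 and 324. The glutathione peroxidase Gpx1 was bright on both arrays (6100 and 5428), whereas the secreted peroxidase Gpx3 read 355 in vehicle and 128 with heme, the only member that was 2-fold lower. Nfe2l2 itself read 1497 and 1282 and Bach1 read 212 and 264, so the signals of the regulators differed by less than 1.5-fold.

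Conjugation and export of toxic compounds followed. Of 22 genes at level in the list of glutathione transferases, related enzymes and efflux pumps, 5 were 2-fold higher and none lower, with a median of 0.32. The transferase Gsta3 read 21.1 and 66.5, Gstm2 read 106 and 223, and the membrane-bound Mgst2 read 768 and 1561. The other members at 2-fold were pumps of the Abcc family, which export conjugates: Abcc3 read 45.2 and 98.2, and Abcc5 read 283 and 577. Abcc1, counted above with the heme transporters, read 145 and 467. Of the 22 genes, 16 had a positive difference and 6 a negative one. Among transferases short of 2-fold, the bright Gstm1 read 1843 and 3126, and Gstp1 read 583 and 868. On the lower side, Gstk1 read 34.1 and 19.6, and Gstz1 read 50.4 and 29.6, both below level with heme. In the list of lipid peroxidation and ferroptosis genes (19 at level, 1 higher and 2 lower, median 0.07), Alox15, a lipoxygenase that oxidizes membrane lipids, read 59.2 in vehicle and 27.3 with heme. Metallothioneins and zinc transporters, which answer to metals such as zinc, had no member beyond 1.5-fold in either direction among 15 at level, with Mt1 at 5323 and 5902.

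**Figure D3:**
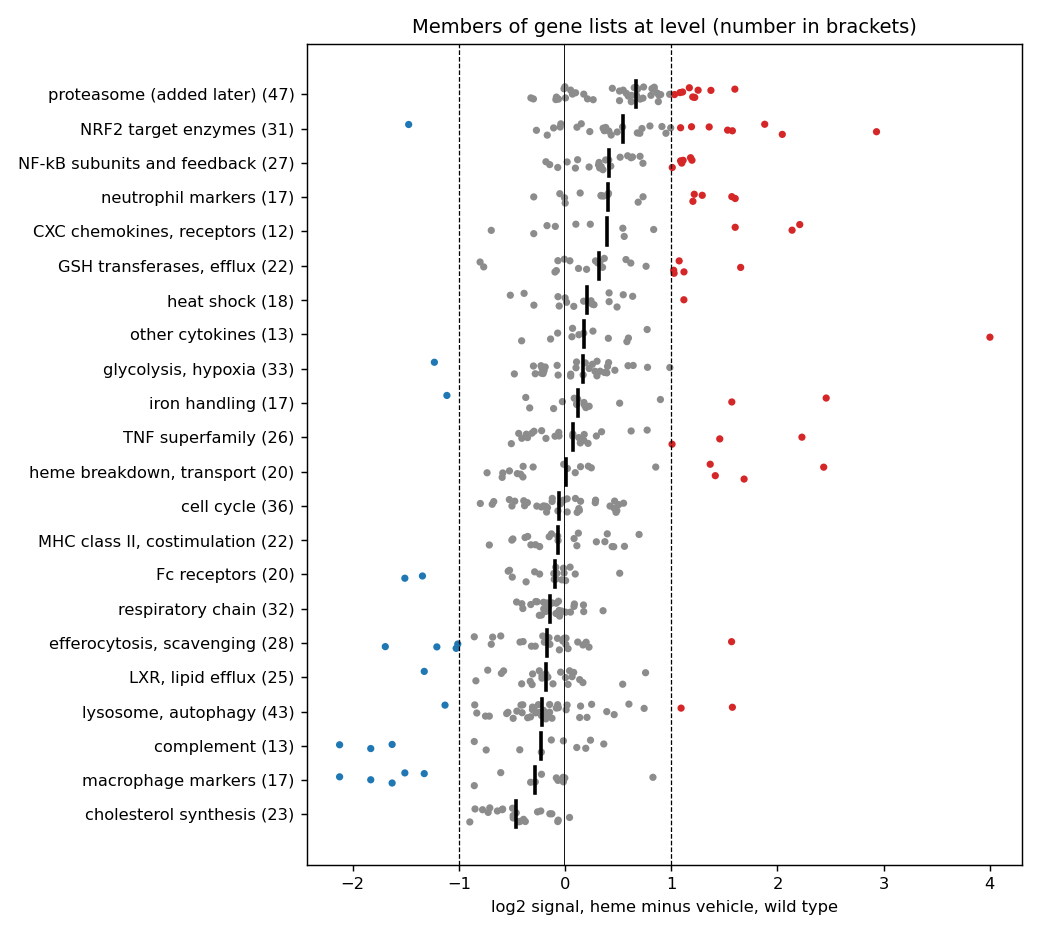
Log2 difference (heme minus vehicle, wild type; horizontal axis) of the members at level in selected gene lists (vertical axis); each point is a gene, the thick bar is the list's median over genes, and dashed lines mark 2-fold. The medians run from 0.67 for the proteasome to -0.46 for the cholesterol synthesis genes.

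Genes in most parts of the proteasome, the complex that degrades ubiquitin-tagged proteins, had positive differences with heme. The family was collected by symbol after its values had been seen, so its count is a description. Of 47 proteasome genes at level, 9 were 2-fold and 28 were at least 1.5-fold higher, none was 1.5-fold lower, and the median was 0.67. All 6 ATPases of the regulatory particle, which unfold the substrate, were at least 1.5-fold higher, 3 of them 2-fold. Psmc6, for example, read 202 and 481, and Psmc2 read 178 and 383. Of its 14 other subunits 5 were 2-fold higher, with Psmd3 at 117 and 302, and Psmd4, a ubiquitin receptor, at 280 and 592. In the core particle, the alpha subunit Psma5 read 600 and 1818, and the median of the 7 alpha subunits was 0.67. The constitutive catalytic beta subunit Psmb5 read 636 and 1139, and Psmb7 read 317 and 503. The beta subunits that replace these in the interferon-induced immunoproteasome read nearly alike on both arrays, Psmb8 at 249 and 266 and Psmb9 at 639 and 671, while Psmb10 read 275 and 220. The interferon-induced activator subunits Psme1 (648 and 649) and Psme2 (347 and 327) differed as little. Pomp, the assembly chaperone of the core particle, read 692 and 1109, and the activator Psme4 read 286 and 441.

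**Figure D4:**
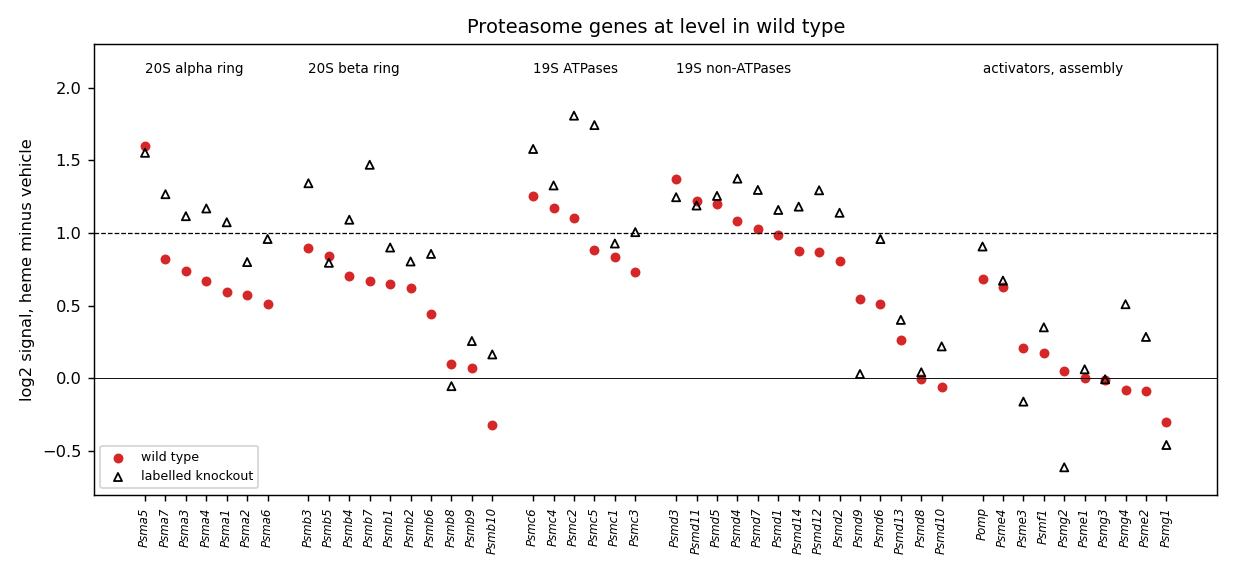
Log2 difference (heme minus vehicle) of each proteasome gene at level, wild type and labelled knockout, by part of the complex; each point is 1 gene. The ATPases run from 0.73 to 1.25 in wild type, and the immunoproteasome subunits Psmb8, Psmb9 and Psmb10 lie between -0.32 and 0.10.

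The autophagy genes Sqstm1 and Ulk1 were higher as well, while most lysosomal genes lay below 0. In the list of lysosome and autophagy genes (43 at level) 2 were 2-fold higher and 1 lower, 31 had a negative difference and the median was -0.21. The 2 higher members were Sqstm1, the p62 adaptor that carries ubiquitin-tagged cargo to autophagosomes and anchors KEAP1, at 345 and 1028, and the autophagy kinase Ulk1 at 72.6 and 155. Lgmn, the lysosomal protease legumain, read 1228 and 561. Cathepsins, the main lysosomal proteases, were collected after their values had been seen: all 12 at level had a negative difference (median -0.42), none 2-fold, with Ctsl at 1265 and 772 and Ctsk at 237 and 133. Stefins, small inhibitors of cathepsins that neutrophil precursors make in quantity, ran the other way, with Stfa2 at 194 and 581 and Stfa3 at 274 and 633. Stefin genes are near-identical copies, so their probe sets may share signal. Of 18 heat shock genes at level (median 0.21), the co-chaperone Dnajb4, at 105 and 228, was the only one at 2-fold. Of the ATF4 and endoplasmic reticulum stress list (26 at level, median -0.05), none at level was 2-fold in either direction. The ATF4 targets Ddit3 and Ppp1r15a read 70.3 and 104, and 82.0 and 125. The chaperones Hspa5 (806 and 539) and Calr (1169 and 665) were lower by less than 2-fold. Asns, a member of that list below level on both arrays, read 13.3 and 30.0, a log2 difference of 1.17.

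Several genes downstream of NF-κB were 2-fold higher with heme, including inhibitors that limit that pathway. Of 27 NF-κB targets and feedback genes, all at level, 6 were 2-fold higher and none lower, 24 had a positive difference and the median was 0.41. The inhibitors Nfkbia and Nfkbie, which hold NF-κB in the cytoplasm, read 413 and 831, and 49.5 and 107. Tnfaip3, the A20 enzyme that shuts off upstream signaling, read 103 and 220. The anti-apoptotic ubiquitin ligase Birc3 read 111 and 255, and Traf1, an adaptor of TNF receptors, read 29.7 and 67.4. The feedback genes were not all higher: Socs3, an inhibitor of cytokine receptors, read 174 and 157, and Zc3h12a, an RNase that degrades cytokine mRNAs, read 49.9 and 44.1.

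Secreted mediators differed one by one rather than as a class. Il6 read 7.77 in vehicle, far below level, and 124 with heme. It was the only one of 13 other cytokines at level that was 2-fold higher, and Tnf read 280 and 478. In the interleukin-1 family (15 at level, 1 higher), Il1f9, which encodes an IL-36 cytokine, read 70.5 and 432. Il1a read 694 and 1293 and Il1b read 261 and 514, both just under 2-fold, with Casp1, the protease that matures IL-1β, at 269 and 476. The receptor antagonist Il1rn read 689 and 498. The chemokine lists are given by class, and the difference between the classes was not tested. Of 12 CXC chemokines and receptors at level, 3 were 2-fold higher: the neutrophil attractants Cxcl3 (52.0 and 240) and Cxcl2 (229 and 1007), and their receptor Cxcr2 (68.7 and 209). None of 17 CC chemokines and receptors was 2-fold in either direction. The monocyte attractant Ccl2 read 461 and 234 and its receptor Ccr2 read 1854 and 1009, both close to 2-fold lower, while Ccl5 read 148 and 285. In the TNF superfamily 3 of 26 at level were higher: the costimulatory ligand Tnfsf4 (15.4 and 72.3), the costimulatory receptor Tnfrsf9 (124 and 340) and the death receptor Fas (130 and 261).

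Several markers of neutrophils were 2-fold higher on the same array. Of 17 such markers at level, 5 were 2-fold higher and none lower, the median was 0.40, and their summed signal was 17625 in vehicle and 21379 with heme. The 5 were Cxcr2, Lcn2, Mmp9 (a matrix protease of their granules, 35.7 and 87.5), Retnlg (51.7 and 120) and the granule protease Prtn3 (21.2, below level, and 48.7). Several granule genes read alike on both arrays: Mmp8 (1928 and 1929), Ltf (86.9 and 95.9) and Chil3 (6082 and 6059), a gene that macrophages can also express. On the labelled knockout arrays the sum was 16967 and 18657. The part of neutrophils in the differences of the chemokines, stefins and other inflammatory genes was not tested. Markers of mast cells and basophils (12 genes) and of lymphoid cells (16 genes) were all below level on both wild-type arrays.

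Enzymes of arginine, nitric oxide and itaconate metabolism were higher and lower within the same list (18 at level, 3 higher and 1 lower, median -0.17). Acod1, which makes the antimicrobial metabolite itaconate, read 53.2 and 334. The inducible nitric oxide synthase Nos2 read 24.4 and 80.2 and the mitochondrial arginase Arg2 read 21.8 and 53.9, both below level in vehicle. The cytosolic arginase Arg1 read 1362 and 857, and the arginine importer Slc7a2 read 1361 and 819. Of these enzymes, those at low signal in vehicle were higher and Arg1, bright in vehicle, was lower by less than 2-fold. Kynu, an enzyme of tryptophan breakdown, read 217 and 84.8. Prostaglandin and leukotriene genes had none at 2-fold among 21 at level, and Ptges, a prostaglandin E synthase, read 31.6 and 59.7.

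Among surface receptors of innate immunity, a pair of lectins and Treml4 were higher, and Ly86 and Tlr8 were lower. Of 35 at level 3 were higher and 2 lower, with a median of -0.08. The paired C-type lectins Clec4e (Mincle) and Clec4d, which sense damaged cells and mycobacterial lipids, read 184 and 661, and 803 and 1835. Treml4, which is known from spleen macrophages and binds dying cells, read 16.4 and 118. Cd14, the co-receptor for lipopolysaccharide, read 583 and 1034. Ly86, which pairs with the Toll-like homolog CD180, read 598 and 240, and the RNA sensor Tlr8 read 244 and 111. The mannose receptor Mrc1 read 975 and 539. The scavenger receptor Marco read 115 and 342, the only member higher at 2-fold among 28 genes of efferocytosis and scavenging at level.

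A few genes by which macrophages recognise dying cells and opsonised particles were 2-fold lower, while most members of these lists were not. In that efferocytosis list 4 genes were 2-fold lower and 20 had a negative difference (median -0.17). Each of the 4 belongs to the bridge between phosphatidylserine on a dying cell and the phagocyte. Pros1, the protein S that bridges to TAM receptors, read 133 and 41.2, and the TAM receptor Axl read 854 and 424. Mfge8, the bridge to integrins, read 585 and 253, and Itgb5, a subunit of one such integrin, read 544 and 267. Mertk, another TAM receptor, read 628 and 412. Of 13 complement genes at level none was higher and 3 were lower, the subunits of C1q: C1qa read 213 and 48.9, C1qb 322 and 90.6, and C1qc 911 and 295. The complement receptor C3ar1 read 1906 and 1138. Among Fc receptors and their relatives (20 at level, 2 lower, none higher), the high-affinity IgG receptor Fcgr1 read 237 and 83.3 and Fcrls, an Fc receptor-like protein, read 341 and 135. The activating receptor Fcgr4 read 170 and 118.

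Some macrophage markers were lower and others read alike. Of 17 macrophage markers, all at level, 5 were 2-fold lower and none higher, 16 had a negative difference and the median was -0.28. Besides the C1q genes and Fcgr1, Apoe, the lipid carrier, read 358 and 143. The receptor for M-CSF Csf1r read 1118 and 1116, F4/80 (Adgre1) read 764 and 753, CD11b (Itgam) read 1772 and 1752, and lysozyme (Lyz2) read 10118 and 9990. These 4 read alike on both arrays, but they are picked from a list in which 7 members were at least 1.5-fold lower. Mrc1 and Mertk, given above, belong to it and were lower by less than 2-fold. Cd14, also given above, was the 1 member with a positive difference. Lyz2 was among the 10 brightest genes in vehicle, and compression of differences at such signals was not tested. Markers of dendritic cells had none at 2-fold among 12 at level (median -0.28), with Ccl22 at 438 and 686 and CD11c (Itgax) at 1340 and 741. Markers of red pulp macrophages, the spleen cells that clear old red cells, held 4 higher and 2 lower among 9 at level. The higher ones were Spic, Treml4, Slc40a1 and Hmox1. Spic and Treml4 were below level in vehicle, so only the heme array brought them into the 9. The list's median was 0.49 at level and -0.01 over all 12 genes measured. The lower ones were Axl and the sialic acid receptor Siglec1 (127 and 59.4). Vcam1 was never at level. Genes for MHC class II and costimulation had no member at 2-fold among 22 at level.

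Spic stood alone among transcription factors of the myeloid lineage. It read 17.0 and 429, and it was the only one of 38 at level that differed by even 1.5-fold. Its vehicle signal was below level, so only the heme array brought it into the 38. It was also the largest increase of the whole comparison, so its place in this list is a description. Pparg, which directs alveolar and lipid-handling macrophages, read 522 and 393, Irf8 read 199 and 156, and Cebpa read 329 and 235. Outside that list, Epas1, which encodes the hypoxia factor HIF-2α, read 93.4 and 39.8. It was the only glycolysis and hypoxia gene at 2-fold among 33 at level, although the hypoxia-induced Ankrd37 read 123 and 243 and Ero1a read 1102 and 1888. Of 35 growth-signal and immediate early genes at level, Fosl1, an AP-1 subunit, was higher (28.3 and 69.6) and Rgs1, which damps G protein signaling, was lower (555 and 161). Egr2, bright in these cultures, read 2025 and 1179.

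Cholesterol synthesis genes had mostly small negative differences. None of 23, all at level, was 2-fold lower, but 8 were at least 1.5-fold lower, 22 had a negative difference and the median was -0.46. Msmo1 read 489 and 263, Dhcr7 185 and 103, Idi1 145 and 84.6, and Hmgcs1, the pathway's first committed synthase, 405 and 245. The regulator Srebf2 read 263 and 241. Of 25 genes of LXR-driven lipid efflux at level (median -0.18) Apoe alone was 2-fold lower. The cholesterol exporter Abcg1 read 947 and 572 and the other exporter of the pathway, Abca1, read 106 and 119. Fatty acid synthesis and use had no member at 2-fold among 25, and Fasn read 97.3 and 75.4. In the respiratory chain none of 32 genes reached 1.5-fold, 25 had a negative difference and the median was -0.14. Among 27 genes of the pentose pathway, NADPH and nucleotide synthesis, Me1 alone was 2-fold higher, and Pgd, an NADPH-producing dehydrogenase, read 1044 and 1468.

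Matrix proteases and their inhibitors differed in both directions (27 at level, 4 higher and 3 lower, median 0.02). The collagenase Mmp13 read 280 and 46.4, Mmp27 read 52.3 and 20.7, and Timp2, an inhibitor of these enzymes, read 283 and 110. The gelatinase Mmp9 and the proteoglycan Vcan (176 and 373) were higher. The macrophage elastase Mmp12, 1 of the 10 brightest genes in vehicle, read 8187 and 7410. Growth factors and guidance cues had none higher and 3 lower among 19 at level. Pdgfc read 117 and 26.4, hepatocyte growth factor (Hgf) 91.8 and 44.6, and Sema6d 167 and 82.5. The larger Igf1 signal differed less, at 1373 and 1030. Of 27 adhesion molecules at level 3 were 2-fold lower, with a median of -0.17. They were the laminin-binding integrin Itga6 (158 and 52.9), the junctional F11r (237 and 97.8) and Itgb5. Of 30 G protein-coupled receptors and RGS proteins at level 2 were higher and 2 lower. The UDP receptor P2ry6 read 612 and 218, and the fatty acid receptor Gpr84 read 18.5 and 41.7. Rgs3, the other higher gene, read 51.7 and 105, but a second probe set, below level, differed by -0.02, and the mean of both gave 0.50.

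Interferon-induced genes were not higher as a class. Of 25 at level 1 was higher and 3 were lower, 7 were at least 1.5-fold lower and the median was -0.11. Slfn5 read 69.7 and 25.2, Gbp3 read 69.7 and 33.2, and Oas1a, which makes the activator of RNase L, read 103 and 49.8. Isg20, an RNase, was the higher one at 39.7 and 80.5. In the list of cell death and survival genes 2 of 28 were higher and none lower. Mlkl, the executor of necroptosis, read 70.5 and 185, and Fas was the other. Gadd45b, a stress sensor, read 53.5 and 107, just under 2-fold. Of 36 cell cycle genes at level none was 2-fold in either direction: Mki67 read 137 and 190, and Pcna read 1047 and 728. Of 23 amino acid transporters Slc7a11 alone was 2-fold higher.

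Several named genes stood outside the lists. Uchl1, a ubiquitin hydrolase best known from neurons, read 27.4 in vehicle and 112 with heme, and the acute-phase protein Saa3 read 153 and 616. Sec24d, a coat protein of vesicles leaving the endoplasmic reticulum, read 48.6 and 160. Cd1d1, which presents lipids to NKT cells, read 86.1 and 208. Among the lower genes, the interleukin-7 receptor chain Il7r read 1200 and 449, the mRNA-editing enzyme Apobec1 read 1037 and 395, and aminopeptidase N (Anpep, CD13) read 2000 and 912. The caveolae proteins Cav1 (118 and 48.0) and Cav2 (157 and 65.7) were both lower.

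The labelled knockout pair gave a second reading of heme against vehicle. Over the genes at level in wild type, 52.7% had a positive difference there (5678 genes) and 47.2% a negative one (5083), 1.18% were 2-fold higher (127) and 0.371% were 2-fold lower (40). Of the 126 genes higher in wild type, 111 (88.1%) had the same sign and 45 (35.7%) were also 2-fold higher. Of the 96 lower genes, 81 (84.4%) had the same sign and 16 (16.7%) were also 2-fold lower. The differences were mostly smaller there. The median of the 126 genes was 1.22 in wild type, which chose them, and 0.76 in the labelled knockout, and that of the 96 was -1.24 and -0.59. Medians on the side that chose the genes are drawn outward by the choice, so the gap was not tested.

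How far the functions recurred depended on whether the list median or the count at 2-fold was read. The proteasome's median was 0.96 in the labelled knockout with 22 genes 2-fold higher, more than the 9 in wild type. The medians of the NRF2 targets (0.63), the NF-κB list (0.39), cholesterol synthesis (-0.50) and the macrophage markers (-0.27) were close to those in wild type. That of the CXC list was 0.10 against 0.39. By count at 2-fold, the NRF2 targets held 8 higher in both pairs. The NF-κB list held 2 higher against 6 in wild type, and the CXC list 1 against 3. The macrophage markers held 0 lower against 5, and cholesterol synthesis 4 lower against 0. Among single genes, Me1 (3.33), Treml4 (3.06), Uchl1 (2.56), Gsta3 (2.09) and Saa3 (2.02) had log2 differences at least as large as in wild type. Hmox1 differed by 0.19, from a vehicle signal of 9047 that was already near that of wild type with heme. Whether differences are compressed at signals this bright was not tested. Cxcr2 (0.20), Tnfrsf9 (0.18), P2ry6 (-0.29), Ms4a6c (-0.21), Ms4a7 (-0.35), C1qa (0.06) and Hgf (-0.00) were 2-fold apart in wild type and lay between -0.35 and 0.20 there. Slc40a1 differed by 0.62 and Spic by 1.19. None of these gaps between the pairs was tested, and with 1 array each the genotype and the culture cannot be told apart.

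**Figure D5:**
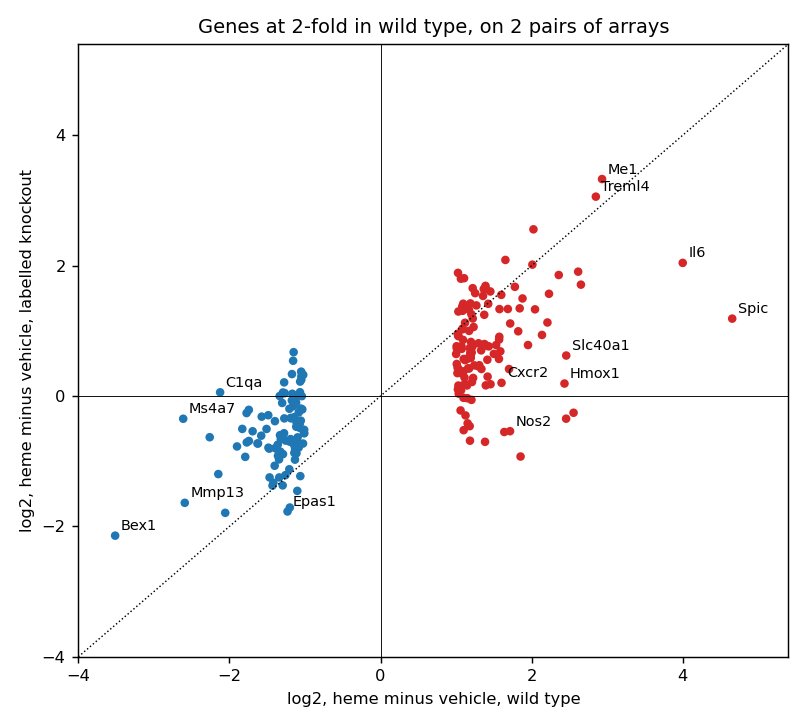
Log2 difference with heme in the labelled knockout (vertical axis) against wild type (horizontal axis) for the genes 2-fold higher (red) or lower (blue) in wild type; each point is a gene and the dotted line marks equal differences. Of the red genes 111 of 126, and of the blue ones 81 of 96, lie on the same side of 0 in both pairs.

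How far a single array set these differences can be read from the other arrays. Of the 126 higher genes, 104 read higher on both heme arrays than on both vehicle arrays. Of the 96 lower genes, 73 read lower on both. Over all 10772 genes at level, 2341 read higher on both heme arrays and 2125 read lower. The choice of the 126 and 96 genes fixed part of that order, so the counts are a description. For 15 of the higher genes the wild-type vehicle array was at least 2-fold below every other array, and for 18 the wild-type heme array was at least 2-fold above every other. For the lower genes these counts were 14 and 8. Genes with more than 1 probe set gave a further check: of 13 other probe sets of 10 called genes, 11 were at level, all 11 of these had the same sign as the probe set used, and 8 were also at 2-fold. Of the 8, only those of Me1 and Psma5 belong to protein-coding genes, and the others to small RNA genes, so the check is narrow. Some of the small RNA probe sets gave exactly the difference of the probe set used, so their agreement is no separate reading. Short of 2-fold, the other probe set of Mras gave -0.60 against -1.14. Those of non-coding RNA genes gave 0.11 against 1.43 and -0.87 against -1.05.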

How the data were processed

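Gene expression was measured on 4 arrays, 1 per group, and the wild-type heme and vehicle arrays were compared. The deposited values are linear intensities after RMA, per the labels and the submitters' processing notes; version and build are not given in the sources used here. The series' design text describes other cells and another RNA kit, so the sample labels were followed. No further scaling was applied. Of 35556 probe sets, 21789 had 1 gene symbol in the platform annotation; 1621 had several and were left out. For the 999 genes with several probe sets the brightest, by its mean over all arrays, was used, which left 19938 genes. Signals were taken to log2 and subtracted. A gene was called at 2-fold or more when the brighter array reached the median of all values. With 1 array a group there is no test, and the number of arrays limits the precision. The files give no detection calls.

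The members and the gene lists were chosen with earlier results of these data known. Genes named are the 40 largest differences in each direction as far as space allowed, list members at 2-fold (at most 8 a direction, otherwise the 3 largest), members named for their role, the 10 brightest genes in vehicle, and Bach1, Spic, Hmox1 and Vcam1. Predicted genes, small RNAs and receptor segments were counted but not named. Families collected by symbol were added after the values were seen. Promoter windows came from RefSeq (GRCm38.p6), in which 15563 genes matched. The κB consensus was searched by its degenerate form on both strands. Alternatives were other fold rules, other level filters, 32 added before log2, repeated quantile normalization, lowess centring and the mean of probe sets. The scripts were tested on simulated data.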

Additional observations from a re-analysis of the deposited data

Results flagged for a closer look

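Among the genes named, 3 differed by 2-fold or more with heme in wild type and by at least 0.25 (log2) in the opposite direction in the labelled knockout. Over all called genes 11 of the 126 higher and 7 of the 96 lower had such an opposite difference. Rny1, a small cytoplasmic RNA, had a log2 difference of 1.85 in wild type, against -0.93 in the labelled knockout. Nos2, the inducible nitric oxide synthase, had 1.71 and -0.54, and its wild-type vehicle signal of 24.4 was below level. Oas1a, an interferon-induced gene, had -1.05 and 0.37. Each side of each difference is 1 array, and the differences between the genotypes were not tested.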

How the results depend on the processing

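The counts followed the fold rule and the level filter: 537 higher and 509 lower at 1.5-fold, 32 and 17 at 3-fold, 50 and 37 with 32 added before log2, and 82 and 55 with the level at the 75th percentile. Quantile normalization again gave 118 and 102, lowess centring 132 and 93, the mean of probe sets 125 and 93, and no level filter 140 and 114. Of the genes called in the comparison as reported, 118 and 96 were called again after quantile normalization and 126 and 93 after lowess centring. Lists with a median of at least 0.3 in size numbered 9 as reported, 5 with 32 added and 4 without a level filter. The share of called genes with the same sign in the labelled knockout was 86.5%, with 77.8% at 1.5-fold and 95.4% with 32 added. No named gene followed under these alternatives changed its direction, nor did the 8 list medians followed; the red pulp macrophage median, 0.49 at level, was -0.01 over all its measured genes. Of the genes named, 56 that were at 2-fold fell short of it with 32 added; Axl, Itgb5 and Sema6d did so with lowess centring, Isg20, Rgs3 and Fas after quantile normalization, and Rgs3 (0.50) with the mean of probe sets. Adding 32 shrinks the folds of dim genes by construction. No paired analysis was possible because each group holds 1 array.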

Other observations

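Further gene families, collected by symbol after their values were seen, are given as descriptions. All 6 genes at level of the Ms4a family, membrane proteins of myeloid and B cells, had a negative difference with heme in wild type (median -0.94). Ms4a7, a marker of mature macrophages, read 131 in vehicle and 21.5 with heme, Ms4a6c read 68.6 and 20.5, and Ms4a6d read 185 and 162. In the labelled knockout the family's median was -0.26. Among the Ifi20x genes, interferon-induced sensors of the AIM2-like family, Ifi207 read 616 and 270, Ifi209 read 71.0 and 39.2, and Ifi206 read 30.1 and 42.7. Siglece, an inhibitory sialic acid receptor, read 55.4 and 118, whereas Siglec1 was lower. Ribosomal protein genes gave a contrast of little difference, with none of 54 at 2-fold and a median of 0.08.

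Small RNA genes were counted among the calls without being named, apart from Rny1. Of 121 at level 10 were 2-fold higher and 4 were 2-fold lower in wild type. Over all genes at level the shares were 1.17% higher and 0.891% lower, so small RNA genes were called more often than genes at large. In the labelled knockout 3 of those 10 had the same sign, with log2 differences between -0.93 and 0.99, and none was 2-fold higher or lower. Whether these short transcripts are measured reliably by this labelling was not tested.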
